A study of Mus musculus with 5 samples.

Results

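Macrophages that respond to lipopolysaccharide (LPS) turn the amino acid arginine into several products, and 7 genes of that choice were followed here. They are Nos2, Ass1, Asl, Slc7a2, Odc1, Gch1 and Irg1, taken by symbol from a table of 24419 genes, and all 7 had a row (Irg1 is listed under its older symbol in place of Acod1). They were read in bone marrow-derived macrophages (BMMs) from C57BL6/J mice (C57BL/6 in the sample labels), grown with 50 ng/ml M-CSF for 5 days and activated overnight with 100 ng/ml LPS. The activated cells then received either PBS (2 samples) or 100 ng/ml recombinant semaphorin 3G (Sema3G, 3 samples) for 18 h, so that both groups carry the LPS treatment and differ in Sema3G. The protein was Fc-tagged, made in 293T cells and kept in PBS, and the control was PBS rather than an Fc protein. The comparison asks how Sema3G, a secreted semaphorin, alters RNA in activated macrophages. Whether the replicates were separate cultures or mice is not given, so the p-values rest on spread between these 5 samples, which may be technical. In the main test that spread is in part pooled over genes.

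Inducible nitric oxide synthase, encoded by Nos2, turns arginine into nitric oxide and citrulline, and it needs the cofactor tetrahydrobiopterin, whose synthesis starts with GTP cyclohydrolase 1 (Gch1). Ornithine decarboxylase (Odc1) passes ornithine, which is also made from arginine, on to polyamines. Slc7a2 carries arginine into the cell, and Ass1 and Asl rebuild arginine from citrulline. Irg1 makes itaconate from a citric acid cycle intermediate and, like Nos2, is a known gene of the LPS response.

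The genes lie on 6 chromosomes of the mm10 build (GENCODE M21 models). Nos2 is at chr11:78920787-78960254 on the plus strand. Ass1 is at chr2:31470207-31520672 (plus), Asl at chr5:130011258-130029247 (minus), Slc7a2 at chr8:40862396-40922308 (plus) and Odc1 at chr12:17544794-17551505 (plus). Gch1 is at chr14:47153895-47189413 (minus) and Irg1 at chr14:103046977-103056573 (plus). An exon of Slc7a2 overlaps Gm26584, on the opposite strand, by 473 bp. The sources used here do not say whether strand was used in counting, so the counts of Slc7a2 may hold reads of this neighbour.

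Promoter sequences, running from 250 bases before to 50 bases after the start, were at hand for 4 of the 7 genes (RefSeq, GRCm38.p6), and 3 are shown. Ass1 and Irg1 are shown because their values ran closest together over the 5 libraries, and Gch1 because it was the 1 gene of the set with an unadjusted p below 0.05. Capitals mark every match, on either strand, to any of 6 core promoter or factor patterns, chosen with the sequences in view. They are the TATA box (letters TATAAA), the box named for its letters CCAAT, the GC box (letters GGGCGG), the cyclic AMP element core (letters TGACG), a pattern like that of NF-kappaB (letters GGNNNTTCC) and that of AP-1 (letters TGANTCA), and none of them holds another. The Ass1 window is chr2:31470020-31470319 (plus strand), that of Irg1 is chr14:103046762-103047061 (plus strand) and that of Gch1 is chr14:47189364-47189663 (minus strand).
Ass1 promoter: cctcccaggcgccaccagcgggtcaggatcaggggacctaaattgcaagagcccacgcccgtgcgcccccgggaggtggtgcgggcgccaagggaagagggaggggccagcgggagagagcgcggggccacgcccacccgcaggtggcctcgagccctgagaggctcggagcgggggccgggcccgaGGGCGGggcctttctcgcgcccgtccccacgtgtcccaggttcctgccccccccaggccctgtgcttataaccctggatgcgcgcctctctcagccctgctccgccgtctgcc
Irg1 promoter: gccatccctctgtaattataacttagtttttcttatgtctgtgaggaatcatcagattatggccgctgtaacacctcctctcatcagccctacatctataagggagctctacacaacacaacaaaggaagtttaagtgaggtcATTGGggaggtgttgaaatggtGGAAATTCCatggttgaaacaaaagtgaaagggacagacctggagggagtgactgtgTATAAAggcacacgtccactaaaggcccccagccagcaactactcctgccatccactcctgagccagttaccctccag
Gch1 promoter: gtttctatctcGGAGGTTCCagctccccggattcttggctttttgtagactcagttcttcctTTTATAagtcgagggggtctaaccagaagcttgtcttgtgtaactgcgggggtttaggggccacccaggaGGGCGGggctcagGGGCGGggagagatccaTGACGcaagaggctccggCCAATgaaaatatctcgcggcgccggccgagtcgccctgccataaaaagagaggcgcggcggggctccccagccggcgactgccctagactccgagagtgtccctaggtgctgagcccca
The Ass1 window held a single match, GGGCGG from -63 to -58 relative to the start, in a sequence of 74% G and C. The Irg1 window, at 47% G and C, held TATAAA from -28 to -23, CCAAT on the minus strand from -107 to -103, and GGNNNTTCC from -85 to -77, which reads as a match on both strands. In the Gch1 window CCAAT lay from -70 to -66, TGACG from -88 to -84, GGGCGG from -118 to -113 and from -105 to -100, GGNNNTTCC from -239 to -231 and TATAAA on the minus strand from -188 to -183. These letters are common. Of 32851 promoters of this length, 13.6% held TATAAA, 37.4% CCAAT, 35.7% GGGCGG, 20.8% TGACG, 18.5% GGNNNTTCC and 7.81% TGANTCA. Ass1 and Irg1 shared none of the matched motifs, and a match describes the letters, not a bound factor.

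Libraries were made from RNA 3′ ends with unique molecular identifiers (UMIs), so that an RNA that is captured and assigned counts once whatever its length. Values are in CPM, the UMI count scaled to its library's total. Library totals were 1820104 and 1867995 with PBS and 1798469 to 2215855 with Sema3G, and 3 counts correspond to 1.35 to 1.67 CPM. The share of the total on Rn45s, the ribosomal RNA precursor, was 1.01% and 3.19% with PBS and 6.31%, 7.40% and 7.88% with Sema3G (replicates in order). The median gene lay at a log2 fold change of -0.22 with these values and at -0.04 after TMM scaling, so each change is best read against that shift. All 9 macrophage markers on the list had counts in at least 1 library. Their summed levels were 13074.5 and 10380.1 CPM in PBS replicates 1 and 2 and 9491 to 10138 CPM with Sema3G. Of the lists for other cell types, 5 of 7 T and B cell, 3 of 5 dendritic cell and 3 of 4 mast cell or basophil markers were at 0 in every library. The 10 LPS response genes with a row summed to 98498 and 127575 CPM in the PBS libraries and 70887.5 to 81384 CPM in the Sema3G libraries, nearly all of it Saa3 (95192 and 123758 CPM with PBS and 68319 to 78138 CPM with Sema3G). Il12b was at 0, and over all libraries together Cxcl10 had 1 UMI and Ptgs2 11 UMIs. Tnf and Cd40 averaged 11.3 and 7.54 CPM, while Irf7, Ccl5, Sod2 and Il1b averaged 148 to 1814 CPM. No marker on any list was called. Within that setting 182 of 10088 genes tested (1.80%) passed an adjusted p of 0.05 (limma on log2(CPM + 1)), 160 higher (1.59%) and 22 lower (0.218%) with Sema3G, and under TMM scaling 322 passed higher and 3 lower.

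None of the arginine and nitric oxide genes passed that test. Odc1 was too low to be tested, and the other 6 had adjusted p-values from 0.162 to 0.992. Of the 6, 3 had log2 fold changes above 0 and 3 below, with a median of -0.16 against -0.22 over all genes tested. A single gene, Gch1, had an unadjusted p below 0.05, against 21.1% of all genes tested. With the UMI counts behind the CPM values, neither edgeR's quasi-likelihood test with TMM nor DESeq2 called a member.

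**Figure D1:**
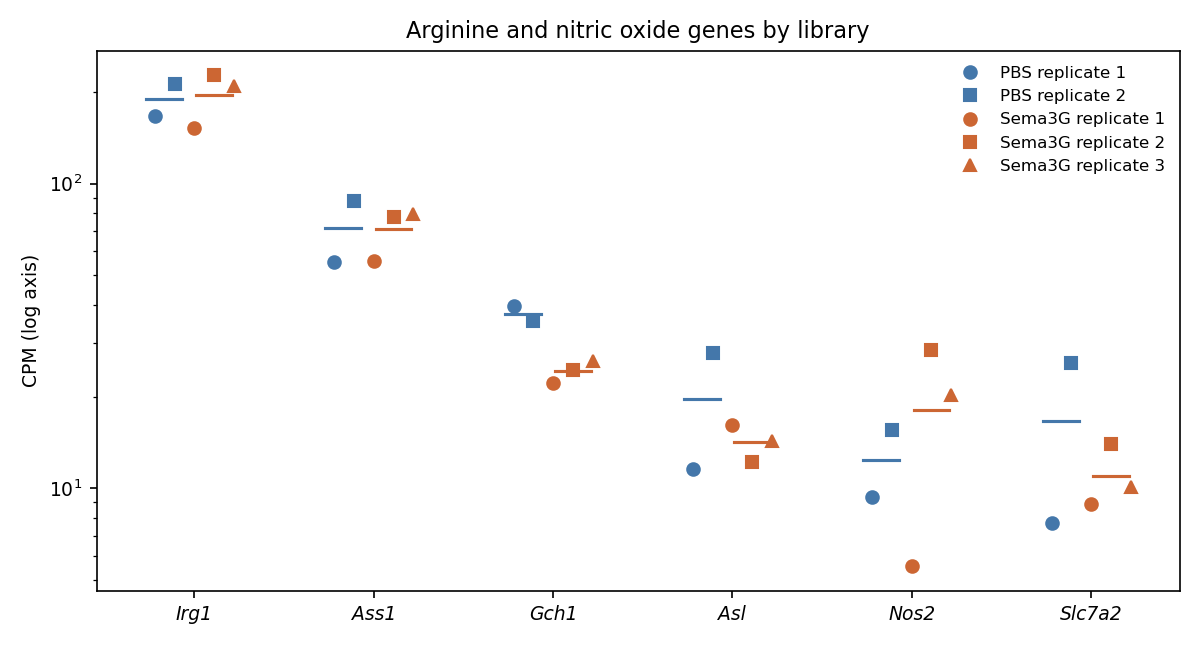
CPM (log axis) of the 6 genes that were tested, with a point for each of the 2 PBS and 3 Sema3G libraries and a bar at each group's mean. Nos2 spans 5.56 to 28.4 CPM with the library numbered 1 lowest in both groups, while Gch1 is the gene whose groups do not overlap.

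By level the 7 genes ran from Irg1 at a mean of 193 CPM over the 5 libraries through Ass1 (71.3 CPM) to Gch1 (29.6 CPM). Each of these was above the next in 5 of 5 libraries. Below them Asl (16.4 CPM), Nos2 (15.8 CPM) and Slc7a2 (13.3 CPM) could not be put in order, since Asl was above Nos2 in 3 of 5 libraries and Nos2 above Slc7a2 in 3 of 5. Odc1 came last with a mean of 0.489 CPM. The counts of the nitric oxide synthase and the arginine transporter thus lay below those of Irg1 and Ass1 in every library. This is an order of counts and need not be that of RNA amounts. Gapdh, which most cells use strongly, had only 3 to 8 UMIs per library in the same values (chosen after they were seen).

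Nos2, the nitric oxide synthase, was read with few counts. Its levels were 9.34 and 15.5 CPM in PBS replicates 1 and 2 (17 and 29 UMIs) and 5.56, 28.4 and 20.3 CPM in Sema3G replicates 1, 2 and 3 (10, 63 and 44 UMIs). Sema3G replicate 1 was the lowest of all 5 libraries and replicates 2 and 3 were the highest, so the groups overlapped. The PBS mean was 12.4 ± 4.37 CPM (SD, n = 2) and the Sema3G mean 18.1 ± 11.6 CPM (SD, n = 3). The log2 fold change was 0.29 (SE 0.46, 95% interval -0.68 to 1.26, limma adjusted p = 0.735). It was 0.48 on TMM-scaled CPM (limma adjusted p = 0.687) and 0.57 when scaled to the listed genes other than Rn45s (limma adjusted p = 0.661). Fitted on the counts, it was 0.78 with edgeR and TMM (adjusted p = 0.441), 0.57 with edgeR without TMM (adjusted p = 0.447) and 0.78 with DESeq2 (adjusted p = 0.740). Leaving out Sema3G replicate 2 turned the limma value to -0.15 and leaving out PBS replicate 1 to -0.045, and leaving out Sema3G replicate 1 took it to 0.94.

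The spread of Nos2 was between libraries of the same group. Sema3G replicates 2 and 3 were 5.11-fold (95% counting interval 2.61 to 11.2) and 3.65-fold (1.81 to 8.13) above Sema3G replicate 1, and the PBS libraries differed by 1.66-fold with an interval of 0.883 to 3.22. Across the groups, Sema3G replicate 1 was 0.595-fold PBS replicate 1 (0.244 to 1.38), and Sema3G replicates 2 and 3 were 1.83-fold (1.16 to 2.95) and 1.31-fold (0.799 to 2.17) PBS replicate 2. These intervals cover counting error alone, and the labels do not say that a replicate number marks a shared culture or day. Among the 6378 genes whose mean reached 10 CPM, Nos2 ranked 3 from the top in the ratio of Sema3G replicates 2 and 3 to replicate 1. Its within-group SD on the log2 scale was 0.97 (rank 28), against a median of 0.25. The limma SE draws a gene's variance toward that of other genes. The limma interval of Nos2 is therefore narrower than its own 5 values would give.

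Other members were uneven in other ways. For the transporter Slc7a2 it was the PBS pair that stood apart, with replicate 2 at 3.34-fold replicate 1 (1.81 to 6.56), which ranked 14 of the 6378 genes. The lyase Asl followed at 2.41-fold (1.43 to 4.22, rank 45), with no like gap among its Sema3G libraries. In each group Slc7a2 was also lowest in the library numbered 1, as Nos2 was, though among its Sema3G libraries the ratios to replicate 1 were 1.57 (0.834 to 3.08) and 1.14 (0.572 to 2.32), with intervals that include 1. Ass1 and Irg1 shared that order. PBS replicate 2 was 1.58-fold PBS replicate 1 for Ass1 (1.23 to 2.05) and 1.27-fold for Irg1 (1.09 to 1.48), and Sema3G replicate 2 was 1.40-fold (1.08 to 1.80) and 1.49-fold (1.29 to 1.74) Sema3G replicate 1. Gch1 was the steadiest, with a within-group SD of 0.11.

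Other readings also set the libraries numbered 1 apart. In each group the library numbered 1 also had the lowest Rn45s share. The sum of the LPS response list, nearly all Saa3, was likewise lowest there, and so was Il1b, at 1451 and 2495 CPM in the PBS libraries and 1110.4, 2119 and 1894 CPM in the Sema3G libraries. On the same list Ptgs2 was also lowest there, at no more than 6 UMIs. Other genes of that list were highest in the library numbered 1 of each group. The interferon-induced gene Irf7 was at 241 and 62.6 CPM with PBS and 256, 117 and 63.2 CPM with Sema3G. The chemokine gene Ccl5 was at 520.3 and 209.9 CPM against 381, 248 and 139 CPM. Sod2 was at 1066 and 1034 CPM against 797, 744 and 729 CPM. Tnf was at 14.8 and 8.57 CPM against 13.9, 9.93 and 9.22 CPM. Cd40 was at 12.1 and 6.42 CPM against 10.6, 5.42 and 3.23 CPM. The list thus had no single direction. Il1b, Ptgs2, Irf7, Ccl5, Sod2, Tnf and Cd40 were named after their values were seen. The summed level of the 7 neutrophil markers with a row was 116 and 169 CPM with PBS and 103, 133 and 132 CPM with Sema3G, nearly all of it S100a8, while the neutrophil genes Elane and Retnlg were at 0 in all libraries and Mpo at no more than 1 UMI. Their part in the spread of Nos2, Slc7a2, Ass1 and Irg1 was not tested. The M2 (IL-4 response) list ran the other way, with sums of 59.3 and 28.4 CPM with PBS and 89.5, 41.1 and 52.6 CPM with Sema3G, nearly all of it Mrc1, and Retnla was at 0. The stromal list was likewise highest in the library numbered 1 of each group, with sums of 52.2 and 21.9 CPM with PBS and 38.9, 16.2 and 35.03 CPM with Sema3G. The largest part of each sum was Pecam1 (CD31, which leukocytes also carry), at 28.6 and 13.4 CPM with PBS and 27.2, 9.93 and 17.5 CPM with Sema3G. The fibroblast collagens Col1a1, Col1a2 and Col3a1 were each higher in PBS replicate 1 than in replicate 2, but among the Sema3G libraries each was highest in replicate 3.

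**Figure D2:**
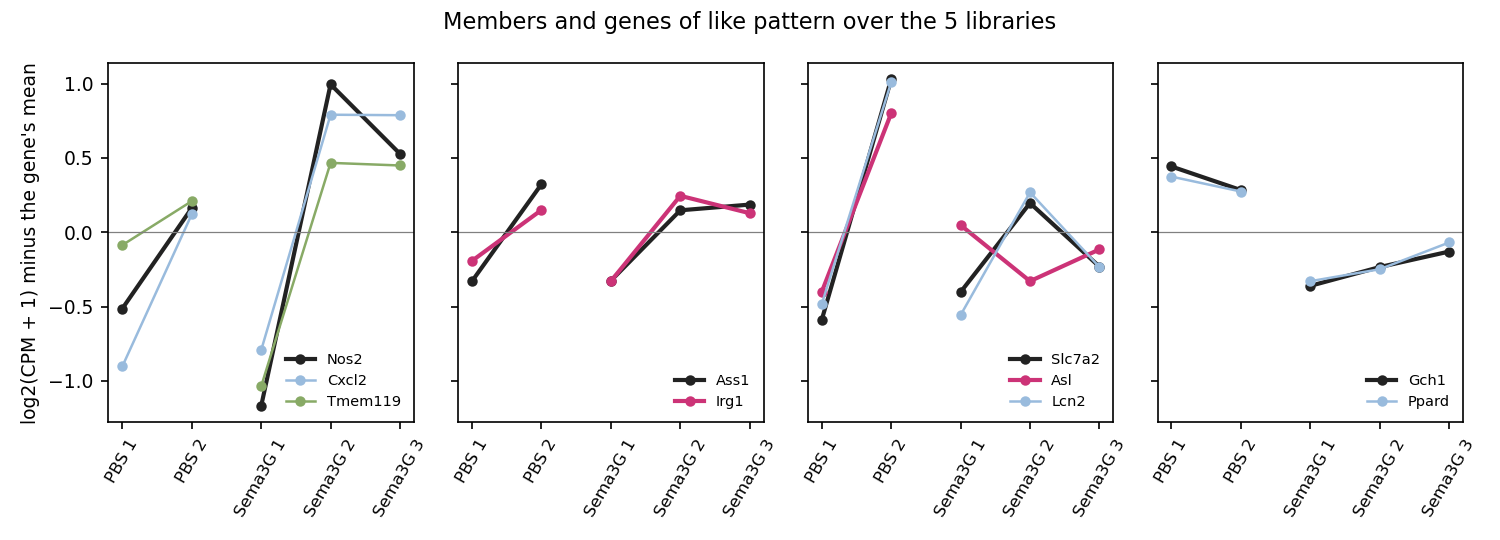
log2(CPM + 1) of each member minus its own mean over the 5 libraries (vertical axis), for the libraries named on the horizontal axis, with genes of like pattern in thin lines. Lines join libraries of 1 group to carry the eye and imply no order, and the panels show Nos2, Ass1, Irg1 and Slc7a2 lowest in the library numbered 1 of each group, Slc7a2 and Asl high in PBS replicate 2, and Gch1 lower in all 3 Sema3G libraries.

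Gch1, which supplies the cofactor of nitric oxide synthase, differed most evenly between the groups. Its levels were 39.6 and 35.3 CPM with PBS (72 and 66 UMIs) and 22.2, 24.4 and 26.3 CPM with Sema3G (40, 54 and 57 UMIs). Every Sema3G library was thus lower than either PBS library, as was so for 26.5% of all genes, while 11.9% lay higher without overlap. Of the 6 members tested it was the 1 whose groups did not overlap. The means were 37.4 ± 2.99 CPM (SD, n = 2) and 24.3 ± 2.02 CPM (SD, n = 3). The log2 fold change was -0.60 (SE 0.23, 95% interval -1.10 to -0.11, limma adjusted p = 0.162), or -0.38 relative to the median gene. Over the 17 alternatives it stayed below 0, between -0.68 and -0.33, and its adjusted p ran from 0.0948 to 0.809.

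The enzymes that rebuild arginine from citrulline differed little between the groups in Ass1 and were noisy in Asl. Ass1 was at 55.5 and 87.8 CPM with PBS and 55.6, 77.6 and 79.7 CPM with Sema3G, and its log2 fold change was 0.0055 (SE 0.23, 95% interval -0.48 to 0.49, limma adjusted p = 0.992). Again both libraries numbered 1 were the low ones. Asl was at 11.5 and 27.8 CPM with PBS (21 and 52 UMIs) and 16.1, 12.2 and 14.3 CPM with Sema3G (29, 27 and 31 UMIs), with PBS replicate 2 standing apart. Its log2 fold change of -0.33 (SE 0.34, limma adjusted p = 0.583) became -0.93 without PBS replicate 1 and 0.27 without PBS replicate 2.

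Slc7a2, the inducible arginine transporter, resembled Asl. It was at 7.69 and 25.7 CPM with PBS (14 and 48 UMIs) and at 8.90, 14.0 and 10.1 CPM with Sema3G (16, 31 and 22 UMIs). The Sema3G libraries all lay between the PBS libraries. Its log2 fold change was -0.37 (SE 0.40, limma adjusted p = 0.612), with -1.17 without PBS replicate 1 and 0.44 without PBS replicate 2. When both libraries numbered 1 were left out, a choice made after seeing the data, Asl (-1.02, limma adjusted p = 0.0177) and Slc7a2 (-1.05, limma adjusted p = 0.0209) were called lower, while 12.7% of all genes were then called lower from 1 PBS library, which is assumed to vary as the Sema3G libraries do.

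Irg1, the itaconate-producing enzyme, had the highest counts of the 7 genes. It stood at 167 and 212 CPM with PBS and at 152, 227 and 209 CPM with Sema3G, with means of 190 ± 31.8 CPM (SD, n = 2) and 196 ± 39.1 CPM (SD, n = 3). The groups overlapped throughout, and the log2 fold change was 0.036 (SE 0.21, limma adjusted p = 0.940). As with Ass1, the lowest library of each group was the one numbered 1.

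Odc1, which makes putrescine from ornithine, drew 0 and 1 UMIs under PBS and 1, 3 and 0 under Sema3G. These are at or under 3 counts, so no fold is given. A low count in this table need not mean a silent gene, since Gapdh, a glycolytic enzyme gene that most cells use strongly, had 3 to 8 UMIs per library while Actb had at least 11312 (both chosen after their values were seen).

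**Figure D3:**
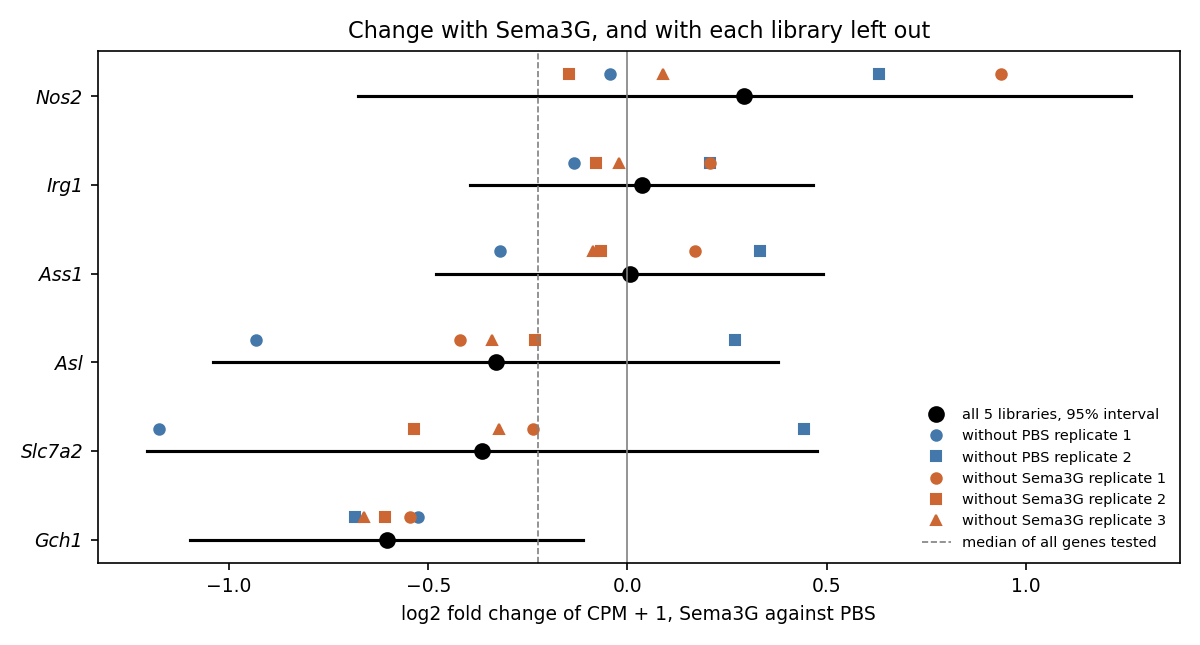
log2 fold change of CPM + 1, Sema3G against PBS (horizontal axis), for the 6 genes tested, with the 95% interval as a bar and coloured points for the estimate with each library left out. The points for Slc7a2 run from -1.17 to 0.44 and those for Nos2 from -0.15 to 0.94, while those for Gch1 stay between -0.68 and -0.53.

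Ratios between members within a library do not depend on how libraries are scaled. For the citrulline branch there were 481 and 315 Ass1 UMIs per 100 Asl UMIs in the PBS libraries and 345, 637 and 558 with Sema3G (mean log2 difference 0.35, two-sided exact permutation p = 0.4). Irg1 exceeded Nos2 in every library, at 1788 and 1366 UMIs per 100 in the PBS libraries and 2730, 797 and 1030 with Sema3G (log2 difference -0.26, exact permutation p = 0.8). The groups overlapped in both ratios, both adjusted p-values were 0.8, and 2 against 3 samples cannot give an exact permutation p below 0.2.

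Irg1 made up more of the UMIs on the 7 genes than all the others together. Its share was 57.5% (exact 95% interval 53.1 to 61.7) and 52.4% (48.8 to 56.0) with PBS and 58.2% (53.6 to 62.7), 58.9% (55.5 to 62.2) and 58.1% (54.5 to 61.6) with Sema3G. Ass1 made up 19.1% to 22.2%. Nos2 took 3.21% (1.88 to 5.10) and 3.84% (2.58 to 5.46) with PBS and 2.13% (1.03 to 3.89), 7.39% (5.73 to 9.36) and 5.64% (4.13 to 7.50) with Sema3G. Gch1 stood at 13.6% and 8.73% with PBS and 8.53%, 6.34% and 7.31% with Sema3G. The libraries numbered 1 held 529 and 469 UMIs on these genes and the others 756 to 852.

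**Figure D4:**
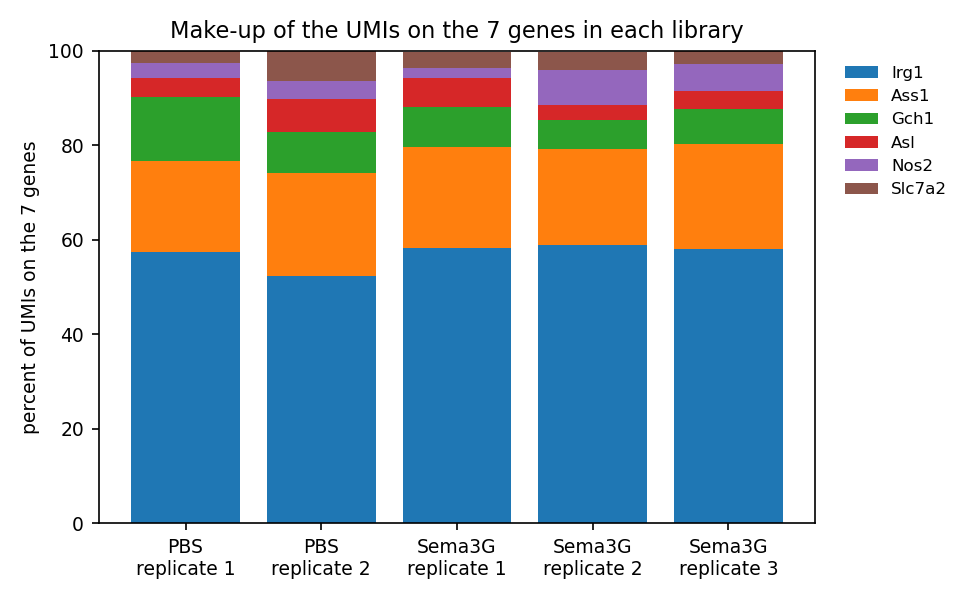
Percent of the UMIs on the 7 genes that belonged to each gene (vertical axis) in each library (stacked bars). Irg1 fills 52.4% to 58.9% of every bar, and Nos2 from 2.13% in Sema3G replicate 1 to 7.39% in Sema3G replicate 2.

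Likeness of pattern was measured as the root mean square distance between 2 genes' log2(CPM + 1) values, each centred on its own mean over the 5 libraries, among 6378 genes. It describes 5 points that share their libraries. Ass1 and Irg1 were the closest members (0.11 on the log2 scale), and Asl lay nearest to Slc7a2 among members (0.34). For Nos2 the nearest genes were Cxcl2 (0.28), a neutrophil-attracting chemokine, and Tmem119 (0.31), and Cxcl2 itself ran from 191 and 390 CPM with PBS to 206, 621 and 620 CPM with Sema3G. Slc7a2 ran with Lcn2 (0.090), an iron-siderophore-binding protein made in the LPS response, and with Sowahc (0.14), and Lcn2 stood at 125 and 353 CPM with PBS and 118, 211 and 148 CPM with Sema3G. The remaining members had neighbours at 0.12 or less. These were B230118H07Rik and Asb6 for Asl, 9930021J03Rik and Snx18 for Ass1, Ppard and Cyb5r3 for Gch1, and Mfsd7b and Mllt4 for Irg1.

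Around these 7 genes, 73 further genes of arginine, nitric oxide, polyamine and itaconate metabolism had a row, and 53 were tested. None passed the adjusted p (limma), against 1.80% of all genes, and 11 had an unadjusted p below 0.05, all of them lower with Sema3G, against 14.2% of all genes. Their median log2 fold change was -0.37 against -0.22 for all genes tested. With these values 48 of the 53 lay below 0, as did 67.5% of all genes, and the count was 38 after TMM scaling and 32 when libraries were scaled to the listed genes other than Rn45s. Relative to the median of all genes, 35 of 53 lay below it under each of these scalings.

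Of 7 arginine transporters and partners 5 were tested, with a median of -0.39, and all 5 lay below 0 (4 of them when scaled to the listed genes other than Rn45s). The best measured was Slc3a2, the heavy chain of amino acid transporters, at 371 and 244 CPM with PBS and 278, 205 and 210 CPM with Sema3G. Slc25a15, the mitochondrial ornithine carrier, and Slc7a7, which exports arginine with Slc3a2, overlapped between the groups. Among nitric oxide synthases and cofactor genes 9 of 13 were tested (median -0.35), and the other synthases Nos1 and Nos3 (named after their values were seen) had 1 UMI each in all 5 libraries together. Calmodulin, which nitric oxide synthases bind, is encoded by several genes, and the estimates of Calm3 and Calm2 differed in sign. Calm3 was at 280 and 252 CPM with PBS and 197, 170 and 166 CPM with Sema3G (log2 fold change -0.58, limma adjusted p = 0.105) and Calm2 at 187 and 153 CPM against 188, 207 and 235 CPM (0.31, limma adjusted p = 0.352).

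Downstream of ornithine, 15 of 21 genes of polyamine and proline synthesis were tested, with a median of -0.20, close to that of all genes. Smox, the spermine oxidase, was at 122 and 149 CPM with PBS and 92.9, 85.3 and 81.6 CPM with Sema3G (log2 fold change -0.63, limma adjusted p = 0.0922). Eif5a, the factor that carries the spermidine-derived hypusine, overlapped between the groups (-0.14), and Oaz1, the antizyme that restrains ornithine decarboxylase, was at 55.5 and 70.7 CPM with PBS against 53.4, 52.4 and 41.9 CPM. Of 3 methylarginine genes 2 were tested, and the arginine methyltransferase Prmt1 was at 31.9 and 29.4 CPM with PBS against 35.6, 28.4 and 28.6 CPM. Ckb, the brain-type creatine kinase, was at 78.6 and 63.7 CPM with PBS against 60.1, 43.8 and 37.8 CPM (log2 fold change -0.60, limma adjusted p = 0.153). The urea cycle genes Cps1, Otc and Nags, which act mainly in liver, were at 0 in all libraries, as were the nitric oxide-sensing guanylate cyclase genes. Adh5 was the 1 gene tested among the nitric oxide targets. It was at 45.6 and 33.7 CPM with PBS against 28.4, 21.7 and 30.4 CPM (log2 fold change -0.55, limma adjusted p = 0.216). Its Sema3G libraries lay lower without overlap, as was so for 26.5% of all genes.

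The citric acid cycle genes around itaconate had a median of -0.41, with 18 of 19 tested genes below 0 (16 after TMM scaling and 13 when scaled to the listed genes other than Rn45s) and 9 that lay lower without overlap, as did 26.5% of all genes. None was called. Idh1, the cytosolic isocitrate dehydrogenase, was at 357 and 272 CPM with PBS and 216, 231 and 249 CPM with Sema3G (log2 fold change -0.43, limma adjusted p = 0.208). Sdhb, a subunit of succinate dehydrogenase, which itaconate inhibits, was at 259 and 185 CPM against 198, 132 and 114 CPM (-0.60, limma adjusted p = 0.153). The lowest adjusted p of all 53 genes was that of Sdhd, another subunit, chosen after its values were seen, at 92.9 and 69.6 CPM with PBS and 49.5, 43.8 and 41.5 CPM with Sema3G (log2 fold change -0.83, limma adjusted p = 0.0509). With edgeR's quasi-likelihood test without TMM it was called lower (adjusted p = 0.0447), and likewise with TMM but no filter on low genes (adjusted p = 0.0494). With edgeR, TMM and the filter, DESeq2, limma on TMM-scaled CPM, or scaling to the listed genes other than Rn45s, 0 of the 53 genes were called.

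**Figure D5:**
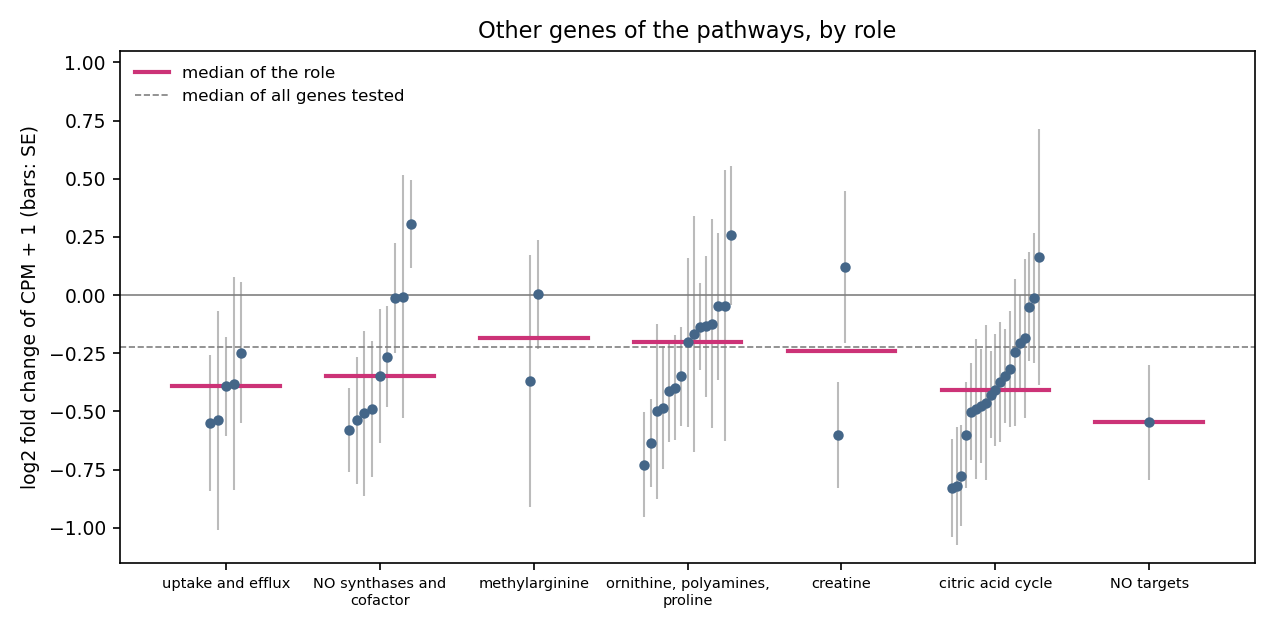
log2 fold change of CPM + 1, Sema3G against PBS (vertical axis), of the 53 further genes tested, by role, with bars of 1 SE, the median of each role in red and that of all genes dashed. No gene passed the adjusted p, and the citric acid cycle genes have a median of -0.41 against -0.22 for all genes.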

How the data were processed

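RNA from LPS-activated mouse BMMs was measured in 5 samples, 2 with PBS and 3 with Sema3G. The authors made QuantSeq 3′ libraries with UMIs, aligned the reads to mm10, used Strand NGS to count UMIs and normalised with EdgeR (3.12 in the submitters' processing notes). The authors deposited CPM values, which were whole multiples of 1 step per library and so gave back the UMI counts (100% whole to within 0.01). The deposited p-values and q-values of the authors' own comparison were not used. Depth was 1283029 to 1487137 UMIs on listed genes, and intervals and floors cover counting error only. In 27 rows a date stood in place of the symbol, and none is named.

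Since the values are CPM, the main test was limma (3.58.1, R 4.3.3) with a trend on log2(CPM + 1), which understates folds of low genes, over the 10088 genes whose mean reached 1 CPM, adjusted over all of them (Benjamini-Hochberg). This test draws each gene's variance toward the trend over all genes, which lowers the SE of uneven genes and raises that of steady ones. edgeR (4.0.16) and DESeq2 (1.42.0) on recovered counts were alternatives, as were other pseudocounts, filters and scalings and leaving out libraries. Ratios within a library (0.5 added to each count) were tested by exact permutation, adjusted over the 2 ratios reported. Scripts were tested on simulated data. Shares have exact Clopper-Pearson intervals. The closest libraries, Sema3G replicates 2 and 3, differed beyond sampling noise (chi-square per degree of freedom 1.77), so all 5 were counted.

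The members and lists were chosen with earlier results of these data known. Named are all members, further genes past the adjusted p, up to 3 of highest mean per role, and for each member whose mean reached 10 CPM its 2 nearest genes, with exceptions stated. Some planned items are not reported here.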

Additional observations from a re-analysis of the deposited data

How the results depend on the processing

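Of all genes, 182 were called in the main analysis, 108 without a filter on low values, 325 with TMM scaling, 498 with scaling to the listed genes other than Rn45s, 334 with edgeR's quasi-likelihood test and TMM, 598 with edgeR and no filter, 27 to 710 with 1 library left out, and 1982 without both libraries numbered 1. No member was called with any single library left out. Without both libraries numbered 1, 2 members were called lower (Asl and Slc7a2). Further pathway genes called numbered 1 with edgeR on library sizes and 1 with edgeR and no filter (Sdhd in each), 13 without both libraries numbered 1, and 0 to 8 with 1 library left out, the 8 without Sema3G replicate 1. The log2 fold change of Ass1 turned to -0.0096 with edgeR on library sizes and -0.16 without both libraries numbered 1. With 1 library left out, Nos2 ranged from -0.15 to 0.94, Ass1 from -0.32 to 0.33, Asl from -0.93 to 0.27, Slc7a2 from -1.17 to 0.44, Gch1 from -0.68 to -0.53 and Irg1 from -0.14 to 0.21. The log2 difference in ratios then ranged from 0.054 to 0.65 for Ass1 to Asl and -0.77 to 0.091 for Irg1 to Nos2. The cause was not tested. Leaving out both libraries numbered 1, and the counts of further pathway genes, were chosen after seeing the data. Where PBS keeps 1 library, it is assumed to vary as the other group does.

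Replicate numbers are shared by 2 pairs. Deviations from the group means correlated at 0.17 (number 1) and 0.11 (number 2) over 10088 genes, and with 2 PBS libraries whose deviations mirror each other this does not show that the numbers pair the samples. With the replicate number as a block, which leaves 1 residual degree of freedom and Sema3G replicate 3 alone in its block, 573 genes, 5 further pathway genes and no member were called, and the estimates of Ass1 (-0.086) and Irg1 (-0.021) turned below 0.

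With 3 counts at 1.35 to 1.67 CPM, Odc1 could not be compared, and Nos2, Asl and Slc7a2 rest on 10 to 63 UMIs per library.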
